A study of Mus musculus with 18 samples.

Results

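PTCP53 304 cells, a mouse line labelled as Sonic hedgehog (SHH) medulloblastoma, were compared by RNA sequencing after 24 h (culture day 1) of CT-179 or of vehicle. The comparison holds 6 of the 18 samples of the series: 3 libraries of vehicle and 3 of CT-179, chosen by their treatment and time labels. Both groups carry the genotype Ptch1+/-; Trp53-/-, so every difference described here was measured in cells that lack p53 and carry a Ptch1+/- genotype by their labels. The treatment label of the CT-179 libraries reads OLIG2 inhibition. The dose was not given in the sources used here, and the cells are a single line, so nothing here tells a property of this line from a property of the tumour type. No label says whether replicates were separate cultures. The p-values below therefore describe the scatter of these libraries alone, which may be technical.

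OLIG2 is a basic helix-loop-helix transcription factor that is needed to make oligodendrocytes and motor neurons, and it is found in dividing progenitors of several brain tumours. In SHH medulloblastoma, loss of the receptor PTCH1 frees SMO, which leads to activation of the GLI transcription factors and to growth of cells related to cerebellar granule neuron precursors. CT-179 is a small molecule made to block OLIG2, so its direct target is a protein and the level of the Olig2 transcript need not change. In an experiment on bulk RNA, fewer cells of a kind and less RNA per cell cannot be told apart.

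Each library gave between 2.95e+07 and 7.09e+07 reads in genes, as implied by the steps between low values. FPKM is the number of read pairs per kilobase of transcript, scaled by library depth. Libraries correlated at 0.9959 or more within their group (log2 scale, Pearson's r across genes), and at most at 0.9948 with a library of the other group. Of the markers of granule neuron precursors and SHH medulloblastoma, 6 of 10 had a mean of at least 1 FPKM. Atoh1, the factor that defines granule neuron precursors, stood between 0 and 0.0254 FPKM, and Mycn between 0.247 and 0.385 FPKM. Oligodendrocyte precursor markers reached 1 FPKM for 4 of 5, with a summed level of 1010 to 1130 FPKM with vehicle and 1090 to 1180 FPKM with CT-179, nearly all of it Olig1 and Olig2, while Sox10 stayed between 0 and 0.0231 FPKM. Markers of microglia, endothelium and oligodendrocytes all stayed below a mean of 1 FPKM (0 of 7, 0 of 5 and 0 of 5 reached it). Of these, C1qa and Mog were at 0 in all 6 libraries. Astrocyte markers reached 1 FPKM for 2 of 5, summed to 360 to 394 FPKM with vehicle and 396 to 409 FPKM with CT-179, and were almost all Aldoc. Fibroblast markers reached it for 3 of 5 and summed to 19 to 21.4 FPKM with vehicle and 19.3 to 20.1 FPKM with CT-179.

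The targeted and deleted genes were read first. Olig2 was at 395, 386 and 366 FPKM with vehicle and 389, 411 and 402 FPKM with CT-179 (382 ± 15.2 and 401 ± 10.9, mean ± SD of 3 libraries). The log2 fold change was 0.07, with limma adjusted p 0.26. The groups overlapped, and an exact two-sided permutation test gave p = 0.2, where 0.1 is the smallest that 3 libraries against 3 can give. Olig1, its neighbour and close relative, was at 698, 659 and 613 FPKM with vehicle and 671, 739.8 and 670.0 FPKM with CT-179 and also overlapped (log2 fold change 0.08, SE 0.06, limma adjusted p 0.38). Trp53 transcript was still read in this Trp53-/- line, at 15.3, 15.8 and 15.2 FPKM with vehicle and 13.6, 14.5 and 13.5 FPKM with CT-179 (log2 fold change -0.15, SE 0.04, limma adjusted p 0.03). Its groups did not overlap, but the call was lost without vehicle replicate 1 or 2 or CT-179 replicate 1 or 3 (limma adjusted p 0.06, 0.093, 0.11 and 0.1). Which part of Trp53 was deleted is not given in the sources used here, so this level does not check the genotype. Ptch1 was at 3.45, 3.98 and 3.83 FPKM with vehicle and 2.92, 2.98 and 3.41 FPKM with CT-179 (log2 fold change -0.21, SE 0.06, limma adjusted p 0.053). The 3 CT-179 values of Ptch1 were below the 3 vehicle values, without passing the threshold.

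After 24 h of CT-179, 14 of 22 extracellular matrix genes, 20 of 28 chromatin regulators, 7 of 14 genes of splicing kinases and cyclin L and 47 of 106 small nucleolar RNA genes were lower. Higher were 66 of 77 ribosomal protein genes, 46 of 77 respiratory chain genes and 12 of 30 cholesterol genes. With account of transcript length these counts were 11, 11, 7 and 56 lower and 28, 12 and 9 higher. Of the 106 small nucleolar RNA genes, 10 entered the test through vehicle libraries alone and had to differ. Of the 96 that reached 1 FPKM in at least 1 library of each group, 37 were lower, and 46 with account of length. Some of the 96 also entered mainly through vehicle libraries, so the filter still favoured falls. Whether reads over these genes come from mature small nucleolar RNAs was not tested. Of 11486 genes tested, 701 were higher (6.1% of all tested) and 1295 lower (11.3%) at a limma adjusted p under 0.05. Most differences were small: the median log2 fold change was 0.165 among the higher genes and -0.211 among the lower ones, and -0.012 over all genes tested. Only 6 genes rose past 1.5-fold, against 100 that fell past it, and 46 fell past 2-fold. When a change larger than 1.2-fold itself had to be shown, 57 genes were lower and 0 higher (limma's treat, with 239 genes at an unadjusted p under 0.05). The balance of the directions depended on the scaling: 35.1% of the calls were higher with the deposited FPKM, 9.04% after scaling each library to the same FPKM sum (266 higher, 2676 lower) and 45.7% after median-of-ratios scaling (954 higher, 1133 lower). The size of the lists also moved with single libraries. Without vehicle replicate 2 the counts were 409 higher and 703 lower, and without CT-179 replicate 1, 2 or 3 they were 180, 175 and 272 higher and 628, 631 and 758 lower. Among all genes tested, 38.7% had vehicle and CT-179 values that did not overlap. Among called genes this held for 699 of the 701 higher and 1293 of the 1295 lower. Lack of overlap in a called gene below therefore describes its values and adds little to the call.

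**Figure D1:**
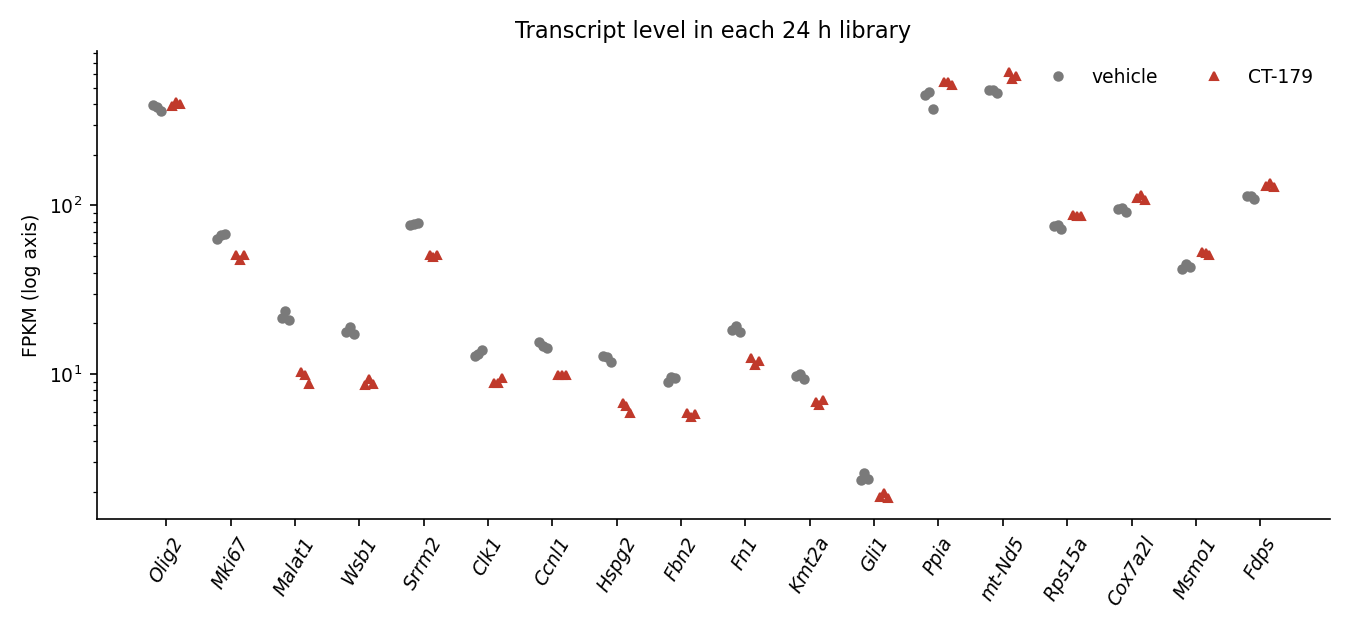
FPKM (log axis) of 18 genes in each of the 3 vehicle libraries (grey circles) and 3 CT-179 libraries (red triangles) at 24 h. Olig2 overlaps between the groups, while Malat1, Wsb1 and Srrm2 lie lower and mt-Nd5, Cox7a2l and Fdps lie higher in all 3 CT-179 libraries.

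The change in a transcript followed its length. Protein-coding genes were sorted by exonic length into 10 bins of equal size. In the bin of the shortest transcripts (66 to 1892 bases) the median log2 fold change was 0.10, with 24.58% of 1062 genes higher and 1.41% lower. In the bin of the longest (10259 to 41155 bases) it was -0.11, with 0.377% higher and 36.4% lower. Across 10612 protein-coding genes, Spearman's rho of the fold change with exonic length was -0.54. This is a description across genes, which are not replicates. Genomic span gave -0.34, but 0.025 once exonic length was held, whereas exonic length kept -0.45 once span was held. Relative to the mean of the 6, deviations rose with length in each of the 3 vehicle libraries (rho 0.25, 0.41 and 0.43). They fell with it in each of the 3 CT-179 libraries (-0.36, -0.54 and -0.36). The deviations of a gene cancel over the 6 libraries, so opposite directions of the groups follow from the centring. They show a slope of one group relative to the other, and not in either group alone. The groups did not overlap in this slope. Whether it arose in the cells or in the handling of the RNA and libraries was not tested.

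**Figure D2:**
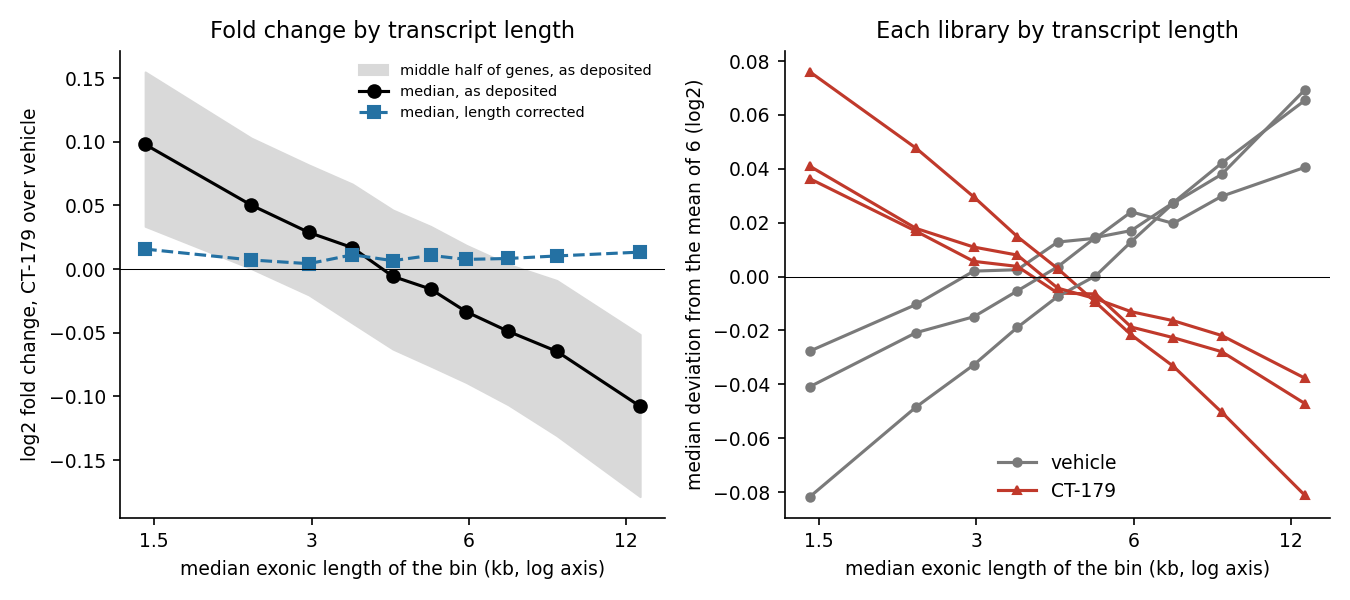
Left, median log2 fold change of CT-179 over vehicle in 10 bins of protein-coding genes by exonic length (log axis), as deposited (black, with the range from the 25th to the 75th percentile shaded) and after the length correction (blue). Right, the median deviation of each library from the mean of the 6 in the same bins: the vehicle and CT-179 lines slope in opposite directions and cross. Opposite directions of the groups follow from the centring on that mean.

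Results are therefore given with and without account of length. For the second reading, the smooth trend of each library's deviation on exonic length was subtracted before the same test. It left 427 of 11483 genes higher (3.72%) and 645 lower (5.62%), and the slope on length was gone by construction (rho 0.007). Of the 701 higher genes, 253 (36.1%) were higher again, which is 59.3% of the corrected list, and 582 of the 1295 lower genes (44.9%) were lower again, 90.2% of the corrected list. The median exonic length of the higher genes went from 2027 to 5200 bases and that of the lower genes from 7704 to 4629 bases, against 4384 bases over all genes tested. The corrected counts moved further when a library was left out: 42, 61 and 80 higher and 247, 296 and 283 lower without CT-179 replicate 1, 2 or 3, 125 and 151 higher and 301 and 314 lower without vehicle replicate 1 or 2, and 848 higher and 789 lower without vehicle replicate 3.

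Of 3 nuclear long noncoding RNAs tested, 2 fell, Malat1 and Tug1 (-1.11 and -0.19), and Malat1 alone stayed called after the length correction. Over all genes 11.3% were lower, and 5.62% after the correction. Malat1, a long noncoding RNA kept in nuclear speckles (chr19:5795690-5802672, mm10, a single exon of 6983 bases in the annotation), was at 21.4, 23.5 and 20.9 FPKM with vehicle and 10.2, 9.82 and 8.72 FPKM with CT-179. The CT-179 values were all under the lowest vehicle value (log2 fold change -1.11, SE 0.06, limma adjusted p 0.00015), and the length correction left it at -1.06. Wsb1, whose protein brings targets to a ubiquitin ligase, was at 17.7, 19 and 17.3 FPKM with vehicle and 8.61, 9.37 and 8.74 FPKM with CT-179 (log2 fold change -0.94, SE 0.05, limma adjusted p 0.00011; length corrected -0.93). Srrm2 encodes a large scaffold protein of nuclear speckles. Its values of 77, 77.8 and 78.2 FPKM with vehicle and 50.6, 49.3 and 50.8 FPKM with CT-179 were separated by a wide gap (log2 fold change -0.62, SE 0.03, limma adjusted p 7.8e-05; length corrected -0.50). Leng8, Rsrp1, Zfp692 and Paxbp1 also fell (log2 fold change -0.69, -0.56, -0.47 and -0.56) and stayed called after the correction. Dync1h1, the motor subunit of cytoplasmic dynein, fell by 0.70 on the log2 scale from a range of 36.2 to 37.9 FPKM to 21.1 to 23.5 FPKM, and Lrp1, an endocytic receptor, by 0.69 from 25.4 to 28.6 FPKM to 15.3 to 17 FPKM. Each of the genes named in these sentences was called in all 6 fits that left a library out.

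CLK kinases phosphorylate SR proteins, the splicing factors that gather in nuclear speckles, and cyclin L proteins pair with CDK11 in the control of splicing. Of 14 genes on the list of these kinases, cyclins and partners, 7 fell and 0 rose, with a median log2 fold change of -0.18 (length corrected, 7 and 0, -0.09). For this and the next list, the shares over all genes were 11.3% lower and 6.1% higher, and 5.62% and 3.72% after the correction. Clk1 was at 12.8, 13.2 and 14 FPKM with vehicle and 8.87, 8.87 and 9.42 FPKM with CT-179 (log2 fold change -0.51, SE 0.04, limma adjusted p 0.00048). Ccnl1, a cyclin L gene, was at 15.5, 14.7 and 14.3 FPKM with vehicle and 9.83, 9.92 and 9.92 FPKM with CT-179, with CT-179 values close to each other and under the lowest vehicle value (log2 fold change -0.54, SE 0.04, limma adjusted p 0.00026). Clk4 (-0.48), Ccnl2 (-0.42) and Clasrp, a CLK4-associating protein (-0.55), fell alike, and so did Clk2 (-0.32) and Prpf4b (-0.24), and all 7 stayed called after the length correction. Clk3, at a log2 fold change of 0.04, and Cdk11b, at -0.01, were not called. Of 25 SR proteins and speckle genes, 13 fell and 0 rose (median -0.11; length corrected 6 lower and 1 higher, -0.05). Besides Srrm2, Pnisr fell by 0.51 on the log2 scale, Srsf5 by 0.25 and Acin1 by 0.24, and all 3 stayed called after the correction. Son, whose long transcript encodes a speckle core protein, was at 36, 36.4 and 37.7 FPKM with vehicle and 31.5, 31.1 and 31.6 FPKM with CT-179 (log2 fold change -0.22, SE 0.03, limma adjusted p 0.0032), but after the correction its log2 fold change was -0.08, limma adjusted p 0.097. The core SR genes Srsf1, Srsf2, Srsf3 and Srsf4 had log2 fold changes of -0.04, 0.0, 0.0 and 0.0, none of them called. Scaling to equal FPKM sums gave 11 of 14 and 16 of 25 lower, and median-of-ratios scaling 7 and 12 (with 2 of the 25 higher). Without CT-179 replicate 2, 8 of the 25 were lower. Clasrp, Clk2, Clk3, Cdk11b, Prpf4b, Son and the core SR genes were named after their values had been seen.

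Small nucleolar RNAs (snoRNAs) guide chemical modification of ribosomal and spliceosomal RNA and are mostly cut from introns of host genes. Among 106 snoRNA genes tested, 47 were lower and 0 higher, with a median log2 fold change of -0.77, and after the length correction 56 were lower. The shares over all genes were 11.3% lower and 6.1% higher, and 5.62% and 3.72% after the correction. The correction was fitted on protein-coding genes, whose shortest bin has a median of 1441 bases, against 93 bases for snoRNA genes. It is therefore poorly founded at their length. Because a gene entered the test with 1 FPKM in any 3 libraries, 10 of the 106 passed through vehicle libraries alone and had to differ. Of the 96 that reached 1 FPKM in at least 1 library of each group, 37 were lower, and 46 after the correction. Some of the 96 also entered mainly through vehicle libraries. Snord4a and Snord49a each reached 1 FPKM in 3 vehicle libraries and 1 CT-179 library. The filter therefore still favoured falls among the 96. In the gene list of named snoRNA genes, 44 of 137 were tested and 18 were lower (median -0.66). Of 101 snoRNA genes lying in a tested host on the same strand, 95 had a lower fold change than their own host. Without the 10 that passed through vehicle libraries alone it was 85 of 91. Their 65 hosts had a median log2 fold change of 0.05, with 12 lower and 23 higher. Of 13 listed noncoding hosts, 9 were lower and 1 higher (median -0.28, length corrected 8 and 0, -0.30).

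The sequences below belong to named snoRNA genes that fell, chosen to show both structural classes, read from the GENCODE M21 transcripts (GRCm38), 5′ to 3′. Capitals mark the C box and the D box of the box C/D snoRNAs Snord4a and Snord49a, and the ACA box of the box H/ACA snoRNAs Snora3 and Snora65. These boxes bind the proteins that keep each class stable.
Snord4a: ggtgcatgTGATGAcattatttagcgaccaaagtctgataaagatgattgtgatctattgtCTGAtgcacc
Snord49a: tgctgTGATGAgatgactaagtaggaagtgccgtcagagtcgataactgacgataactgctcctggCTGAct
Snora3: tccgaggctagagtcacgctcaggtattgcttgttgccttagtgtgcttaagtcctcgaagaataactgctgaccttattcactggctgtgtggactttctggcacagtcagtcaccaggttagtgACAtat
Snora65: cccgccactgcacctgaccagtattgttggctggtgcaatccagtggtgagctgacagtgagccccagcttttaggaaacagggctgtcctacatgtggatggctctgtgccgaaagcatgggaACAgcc

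Snord4a (chr11:78181686-78181756 on the minus strand), in an intron of Rpl23a, was at 3.53, 3.81 and 5.06 FPKM with vehicle and 0.792, 0.453 and 1.14 FPKM with CT-179 (log2 fold change -1.52, SE 0.15, limma adjusted p 0.00099), while Rpl23a itself had a log2 fold change of 0.10. Snord49a (chr11:62603450-62603521 on the plus strand) was at 8.27, 3.75 and 9.36 FPKM with vehicle and 1.82, 0.447 and 0.749 FPKM with CT-179 (log2 fold change -2.0, SE 0.32, limma adjusted p 0.0066). Every CT-179 value of these box C/D genes was under every vehicle value. Snora3 (chr7:109520120-109520251 on the plus strand), inside Rpl27a, was at 5.46, 4.32 and 4.43 FPKM with vehicle and 1.28, 1.71 and 2.04 FPKM with CT-179 (log2 fold change -1.10, SE 0.11, limma adjusted p 0.0011), and Rpl27a rose by 0.17 on the log2 scale. Snora65 (chr2:32963291-32963420 on the plus strand), inside Rpl12, was at 21, 19.9 and 19 FPKM with vehicle and 11.8, 11.4 and 13.9 FPKM with CT-179 (log2 fold change -0.65, SE 0.07, limma adjusted p 0.0013), and Rpl12 rose by 0.16. In both loci the small gene and its host moved in opposite directions. Snord78, which lies in Gas5, was at 29, 31.4 and 23.8 FPKM with vehicle and 9.09, 5.36 and 8.17 FPKM with CT-179 (log2 fold change -1.79, SE 0.16, limma adjusted p 0.00073), whereas Gas5, a growth-arrest transcript and host of many snoRNAs, was at 92.7, 86.1 and 93.8 FPKM with vehicle and 88.5, 89.6 and 88.9 FPKM with CT-179 (log2 fold change -0.03, SE 0.04, limma adjusted p 0.62). Snord4a, Snord49a and Snord78 are 71, 72 and 66 bases long, shorter than the reads of 100 bases, and the libraries were made with a kit for messenger RNA. Whether reads over these genes come from the mature snoRNA or from unspliced or retained intron of the host was not tested. A lower value is therefore not shown to be less mature snoRNA. Snora3, Snora65 and Snord78 overlap an annotated exon of their host, so the small gene and the host may share reads.

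Named microRNA genes called lower at 24 h are shown by their mature RefSeq sequences (GRCm38.p6), 5′ to 3′, with the seed, bases 2 to 8, in capitals. They are shown because none of these mature forms shares a seed with another, so they do not form a seed family.
mmu-miR-343: uCUCCCUUcaugugcccaga
mmu-miR-3093-5p: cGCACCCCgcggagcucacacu
mmu-miR-3093-3p: uGUGGACAccgugggagguugg
mmu-miR-9-5p: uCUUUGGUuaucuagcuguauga
mmu-miR-9-3p: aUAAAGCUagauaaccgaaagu
mmu-miR-5125: uCUGCCUGggauuuccuugu

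These mature RNAs are shorter than the reads of 100 bases, so the values are of longer transcripts that cover the gene. Mir5125, in an intron of Srrm2 (chr17:23823339-23823358), was at 38.9, 42.2 and 26.2 FPKM with vehicle and 9.26, 9.77 and 4.78 FPKM with CT-179 (log2 fold change -2.07, SE 0.25, limma adjusted p 0.0021), below its already lower host. Mir3093 (5p form at chr3:88215186-88215207) and Mir9-1 (5p form at chr3:88215613-88215635) lie within introns of the long noncoding RNA Gm3764, and Mir343 is at chr7:19386688-19386707, all 4 genes on the plus strand. Mir3093 was at 10.1, 7.6 and 6.72 FPKM with vehicle and 2.15, 2.96 and 1.86 FPKM with CT-179 (log2 fold change -1.46, SE 0.15, limma adjusted p 0.0012) and Mir9-1 at 3.52, 2.36 and 2.52 FPKM with vehicle and 0.632, 0.361 and 0.909 FPKM with CT-179 (log2 fold change -1.22, SE 0.14, limma adjusted p 0.0019). Gm3764 itself was at 31.5, 31.8 and 27.4 FPKM with vehicle and 12.3, 12.8 and 11.4 FPKM with CT-179 (log2 fold change -1.25, SE 0.06, limma adjusted p 0.00011), so the 3 features fell together. Mir343, on an exon of Ercc2, was at 2.51, 2 and 2.4 FPKM with vehicle and 0.0, 0.429 and 0.0 FPKM with CT-179 (log2 fold change -1.55, SE 0.14, limma adjusted p 0.00072). Mir9-1 and Mir343 reached 1 FPKM in 3 vehicle and 0 CT-179 libraries, so both entered the test through vehicle and had to differ. Over all 43 microRNA genes tested, 15 were lower and 2 higher, against 11.3% and 6.1% over all genes. Of the 43, 7 passed the filter through vehicle libraries alone. Of the 36 that reached 1 FPKM in at least 1 library of each group, 8 were lower and 2 higher. This split has the same limit as that of the snoRNA genes. The rises were Gm24270 (log2 fold change 0.63) and Mir6236 (0.47), and Mir6236 was called in only 1 of the 6 fits that left a library out. Gm3764 and the other hosts were named after their values had been seen.

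**Figure D3:**
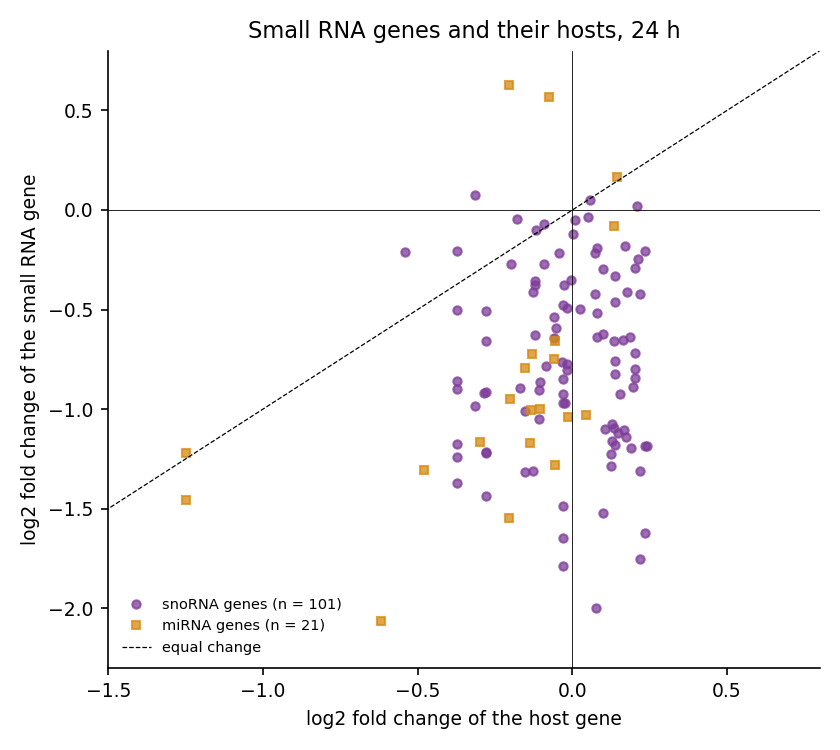
Log2 fold change (CT-179 over vehicle, 24 h) of each snoRNA gene (circles, n = 101) and microRNA gene (squares, n = 21) against that of its tested host gene, with the dashed line marking equal change. Of the snoRNA genes, 95 lie below the line, and of the microRNA genes 17. Without genes under 1 FPKM in every CT-179 library these are 85 of 91 and 11 of 14.

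Extracellular matrix genes were among the strongest falls. Of 22 tested, 14 fell and 0 rose, with a median log2 fold change of -0.23, against 11.3% of all genes and an overall median of -0.012. Of the 22, 11 still fell after the length correction (median -0.13), against 5.62% of all genes. Hspg2, which encodes the basement membrane proteoglycan perlecan, was at 12.9, 12.6 and 11.8 FPKM with vehicle and 6.7, 6.48 and 5.86 FPKM with CT-179 (log2 fold change -0.87, SE 0.05, limma adjusted p 0.00016; length corrected -0.74). The highest CT-179 value lay well under the lowest vehicle value. Fbn2, a fibrillin of microfibrils, was at 9.03, 9.57 and 9.44 FPKM with vehicle and 5.87, 5.54 and 5.79 FPKM with CT-179 (log2 fold change -0.62, SE 0.04, limma adjusted p 0.00017; length corrected -0.50). Fibronectin (Fn1) was at 18.2, 19.4 and 17.8 FPKM with vehicle and 12.5, 11.3 and 12 FPKM with CT-179 (log2 fold change -0.59, SE 0.05, limma adjusted p 0.00041). Neither gene had overlapping groups. The laminin chains Lama5 (-0.68), Lamb2 (-0.32), Lamc1 (-0.28) and Lama4 (-0.27), Fbn1 (-0.61), Tnc (-0.40), Vcan (-0.44) and Col5a1 (-0.30) fell as well and stayed called after the correction. Lamb1, Agrn and Col11a1 were called only without it. The type IV collagen genes Col4a1 and Col4a2, at -0.17 and -0.12, and Sparc, at 0.09, were not called. The list fell under both other scalings (17 and 14 of 22, with 1 higher under median-of-ratios) and with each library left out (12 to 14 of 22). Fat1, a giant cadherin, went from 27.2, 29.1 and 27.8 FPKM to 18.8, 17.5 and 18.1 FPKM (log2 fold change -0.60, SE 0.04, limma adjusted p 0.00017). Fat1, the collagens, Agrn, Sparc, Tnc, Lamb1, Lamb2, Lamc1 and Lama4 were named after their values had been seen.

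Chromatin regulators encode long transcripts, and here the account of length mattered. Of 28 tested, 20 fell and 0 rose (median -0.19), but 11 fell after the length correction (median -0.08), from a list whose median exonic length is 12706 bases. Kmt2a, a histone H3 lysine methyltransferase, was at 9.77, 9.99 and 9.33 FPKM with vehicle and 6.82, 6.59 and 7 FPKM with CT-179 (log2 fold change -0.45, SE 0.04, limma adjusted p 0.00061; length corrected -0.30, limma adjusted p 0.0035). Its relative Kmt2d (-0.42), the acetyltransferase Ep300 (-0.35) and Arid1a, a subunit of the BAF remodelling complex (-0.28), fell too and stayed called. Ezh2, Eed and Suz12, which form the core of the Polycomb repressive complex that methylates histone H3, were not called at -0.01, -0.02 and -0.04. Equal FPKM sums gave 24 lower and median-of-ratios 19, and without CT-179 replicate 1 it was 13. Of 21 DNA repair and Fanconi genes, 7 fell and 0 rose (median -0.07; length corrected 3 and 0, -0.04). Over all genes 11.3% were lower, and 5.62% after the correction. Atm, a kinase that senses DNA breaks, was at 10.9, 10.7 and 11.3 FPKM with vehicle and 8.85, 8.38 and 9.02 FPKM with CT-179 (log2 fold change -0.30, SE 0.04, limma adjusted p 0.0029; length corrected -0.21), and Fanca fell by 0.32. Brca2 fell by 0.23 before the correction and was not called after it. Without CT-179 replicate 1 or 2, 3 of the 21 were lower. Ezh2, Eed, Suz12 and Brca2 were named after their values had been seen.

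Ribosomal protein genes rose together. Of 77 tested, 66 were higher and 0 lower, against 6.1% and 11.3% over all genes. All 77 had a positive log2 fold change, and the median was 0.19. After the length correction 28 were higher and 0 lower, at a median of 0.12, and 74 of 77 stayed positive. The corrected shares over all genes were 3.72% higher and 5.62% lower. Rps15a was at 75.7, 77.1 and 72.8 FPKM with vehicle and 88, 86.5 and 86.8 FPKM with CT-179 (log2 fold change 0.21, SE 0.03, limma adjusted p 0.0043; length corrected 0.26), and Rpl21 at 263, 263 and 259 FPKM with vehicle and 306, 299.8 and 299 FPKM with CT-179 (log2 fold change 0.20, SE 0.03, limma adjusted p 0.0032; length corrected 0.19). Both kept their groups apart. Rpl24 rose by 0.21 on the log2 scale but had 0.10, limma adjusted p 0.061, after the correction. Scaling to equal FPKM sums left 42 higher and median-of-ratios scaling gave 70. The count depended on which library was left out: 54 without vehicle replicate 1, 47 without vehicle replicate 2, 77 without vehicle replicate 3, and 22, 22 and 39 without CT-179 replicate 1, 2 or 3. Ribosomal protein genes made up 11 to 11.4% of the FPKM sum with vehicle and 12.1 to 12.2% with CT-179. Processed pseudogenes, many of them copies of such genes that can share their reads, were also higher (53 of 284, against 6 lower), but only 10 were after the length correction, with 13 lower.

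The respiratory chain, which makes ATP from oxygen in mitochondria, had genes that rose in both its genomes. Of 77 nuclear-encoded subunits, 46 were higher and 0 lower (median 0.15), and 12 were higher after the length correction (median 0.09). The shares over all genes were 6.1% higher and 11.3% lower, and 3.72% higher after the correction. Cox7a2l was at 94.8, 97 and 92.1 FPKM with vehicle and 111, 115 and 108 FPKM with CT-179 (log2 fold change 0.23, SE 0.03, limma adjusted p 0.0051; length corrected 0.15, limma adjusted p 0.018). Atp5e, an ATP synthase subunit, was at 188, 195 and 184 FPKM with vehicle and 216, 235 and 224 FPKM with CT-179 (log2 fold change 0.25, SE 0.04, limma adjusted p 0.0058; length corrected 0.19). In each case the lowest CT-179 value was above the highest vehicle value. Ndufb6 rose by 0.24 but had 0.11, limma adjusted p 0.059, after the correction. Equal FPKM sums left 22 higher and median-of-ratios gave 54, and with single libraries left out the count ran from 11 (without CT-179 replicate 1 or 2) to 60 (without vehicle replicate 3). Without vehicle replicate 2 it was 28 and without CT-179 replicate 3 it was 26.

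Of 12 mitochondrially encoded genes listed, 7 passed the filter on low values and were tested. Why the others had low deposited values was not tested, so they are not shown to be little expressed. Of these 7, 5 were higher and 0 lower (median 0.18), and 2 were higher after the correction (median 0.10). Over all genes 6.1% were higher and 11.3% lower, and 3.72% were higher after the correction. Equal FPKM sums left 3 higher and median-of-ratios scaling gave 6. The complex I subunit mt-Nd5 was at 486, 482 and 468 FPKM with vehicle and 618, 562 and 584 FPKM with CT-179 (log2 fold change 0.30, SE 0.04, limma adjusted p 0.0039), and mt-Cytb of complex III at 1737, 1668 and 1593 FPKM with vehicle and 2118, 1991 and 1997 FPKM with CT-179 (log2 fold change 0.29, SE 0.04, limma adjusted p 0.0061). Both stayed called after the correction, at 0.23 and 0.19. The light-strand gene mt-Nd6, named after its values had been seen, had the opposite sign at -0.22 and was not called. By the deposited values, which were low for the untested genes, mitochondrial genes held 2.07 to 2.15% of the FPKM sum with vehicle and 2.27 to 2.45% with CT-179. Without vehicle replicate 1 or 2, 3 of the 7 genes were higher, and without CT-179 replicate 1 or 3 it was 2.

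The proteasome degrades ubiquitin-tagged proteins. Of its 35 subunit genes tested, 14 were higher and 0 lower (median 0.10), 6 were higher after the correction (median 0.07), and all 35 had a positive fold change. The shares over all genes were 6.1% higher and 11.3% lower, and 3.72% higher after the correction. Psmb1, a subunit of the catalytic core, was at 49.1, 48.9 and 44.9 FPKM with vehicle and 56.4, 56.3 and 55.7 FPKM with CT-179 (log2 fold change 0.23, SE 0.04, limma adjusted p 0.0069; length corrected 0.25). The groups lay well apart. Psmb7 (0.22) and Psma2 (0.17) also stayed called. The count was 5 with equal FPKM sums and 6, 3, 4 and 8 without vehicle replicate 2 or CT-179 replicate 1, 2 or 3. Ppia, which encodes the prolyl isomerase cyclophilin A, was at 452, 471 and 374 FPKM with vehicle and 539, 539 and 519 FPKM with CT-179 (log2 fold change 0.31, SE 0.08, limma adjusted p 0.031). Its groups did not overlap, but it was not called without CT-179 replicate 1, 2 or 3 (limma adjusted p 0.094, 0.1 and 0.067), and near-identical processed copies of Ppia in the genome may share its reads.

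Sterol synthesis genes rose with and without account of length. Of 30 genes of cholesterol synthesis, uptake and efflux, 12 were higher and 1 lower (median 0.13), and after the length correction 9 were higher and 1 lower (median 0.14). Over all genes 6.1% were higher and 11.3% lower, and 3.72% and 5.62% after the correction. Msmo1, a sterol methyl oxidase of the late pathway, was at 41.8, 44.8 and 42.9 FPKM with vehicle and 52.6, 52.4 and 50.7 FPKM with CT-179 (log2 fold change 0.26, SE 0.03, limma adjusted p 0.003; length corrected 0.31). Fdps, which makes farnesyl diphosphate, was at 114, 114 and 109.6 FPKM with vehicle and 130.3, 136 and 128 FPKM with CT-179 (log2 fold change 0.22, SE 0.03, limma adjusted p 0.0053; length corrected 0.23), and Pmvk, the phosphomevalonate kinase, at 33.4, 33.9 and 33.3 FPKM with vehicle and 37.8, 39.5 and 39.2 FPKM with CT-179 (log2 fold change 0.21, SE 0.03, limma adjusted p 0.0042). All 3 CT-179 values were above the vehicle values in each gene. Hmgcs1, Mvd, Nsdhl, Lss and Insig1 rose by 0.19, 0.27, 0.26, 0.17 and 0.19. Abca1, which exports cholesterol, fell from 12.2, 12.8 and 12.7 FPKM to 10.6, 10.1 and 10.5 FPKM (log2 fold change -0.26, SE 0.04, limma adjusted p 0.0038; length corrected -0.16). Equal FPKM sums gave 7 higher and 3 lower, and median-of-ratios scaling 13 and 1. Without vehicle replicate 1 the count was 7 higher, without CT-179 replicate 1, 2 or 3 it was 5, 4 and 6, and the 1 lower gene was found in each of these fits. Hmgcs1, Mvd, Nsdhl and Insig1 were named after their values had been seen.

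In fatty acid synthesis, 5 of 13 genes were higher and 2 lower (median 0.09), and 4 higher and 0 lower after the correction (median 0.10). For this and the next lists, the shares over all genes were 6.1% higher and 11.3% lower, and 3.72% and 5.62% after the correction. The long genes Fasn and Acaca, fatty acid synthase and acetyl-CoA carboxylase, fell by 0.18 and 0.14 on the log2 scale, and Acaca was not called without vehicle replicate 2 or any 1 CT-179 replicate. After the correction neither was called, and Acaca had 0.02. Scd1, a desaturase, was at 10.8, 11.6 and 12 FPKM with vehicle and 13.3, 13 and 12.7 FPKM with CT-179 (log2 fold change 0.17, SE 0.04, limma adjusted p 0.031), but was called in only 1 of the 6 fits that left a library out. With equal FPKM sums 0 of the 13 were higher and 2 lower, and 0 were higher without vehicle replicate 1 or any 1 CT-179 replicate. Lysosome and autophagy genes had 4 of 27 higher and 0 lower (median 0.08; length corrected 4 and 0, 0.06), among them the proteases Ctsb (0.15) and Ctsd (0.14), each called in only 2 of the 6 fits that left a library out. That list also had 0 higher with equal FPKM sums, and 0 or 1 with any 1 CT-179 library left out. Of 17 NRF2 and glutathione genes, 3 rose and 1 fell, but without CT-179 replicate 1 it was 1 and 0. The lipid peroxidase Gpx4 was at 82.9, 87.8 and 83.5 FPKM with vehicle and 97.3, 95.5 and 100.1 FPKM with CT-179 (log2 fold change 0.20, SE 0.03, limma adjusted p 0.0071), without overlap. Gclc, the catalytic subunit for the first step of glutathione synthesis, fell by 0.18 on the log2 scale, and its call was lost without CT-179 replicate 1 (limma adjusted p 0.06). The median of that list was 0.06, and -0.003 with equal FPKM sums, so its sign depends on the scaling.

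Proliferation genes moved in both directions. For the counts below, the shares over all genes were 6.1% higher and 11.3% lower, and 3.72% and 5.62% after the length correction. Mki67, the gene of the proliferation marker Ki-67, was at 63.4, 67.2 and 68.2 FPKM with vehicle and 50.9, 47.3 and 50.7 FPKM with CT-179 (log2 fold change -0.41, SE 0.04, limma adjusted p 0.00099; length corrected -0.32, limma adjusted p 0.0027), with the highest CT-179 value far under the lowest vehicle value. Its 24 h fall was the largest change among the mitotic genes listed: of 28 G2/M genes, 5 rose and 2 fell (median 0.05; length corrected 4 and 1, 0.05; with equal FPKM sums 1 and 5, -0.005). Ube2c, a ubiquitin-conjugating enzyme of mitotic exit, rose from 60.1, 60.2 and 52.7 FPKM to 66.2, 68.2 and 65.7 FPKM (log2 fold change 0.21, SE 0.05, limma adjusted p 0.028), and Cdk1 and Ccnb1, which drive entry into mitosis, by 0.18 and 0.11. None of the 5 rises was called without CT-179 replicate 1, 2 or 3. Aspm, a spindle gene with a long transcript, fell by 0.16 and had -0.06, limma adjusted p 0.28, after the correction. Of 30 G1/S and replication genes, 1 (Pole, -0.29) fell and 0 rose by limma, with 2 and 2 at an unadjusted p under 0.05. The list of CDK inhibitors had 3 of 7 higher: Cdkn2a at 86.2, 84.3 and 75.7 FPKM with vehicle and 93.4, 95.3 and 98.2 FPKM with CT-179 (log2 fold change 0.22, SE 0.05, limma adjusted p 0.02), Cdkn2d (0.20) and Cdkn2c (0.13). Cdkn2a and Cdkn2d were each lost without any 1 CT-179 replicate (limma adjusted p 0.052, 0.07 and 0.07, and 0.054, 0.071 and 0.058), and Cdkn2c was called in 0 of the 6 fits that left a library out. After the correction 0 were called, at a median of 0.12, and without CT-179 replicate 1 or 2 it was 0 as well. Without CT-179 replicate 3 it was 1. Cdkn1a, the p53 target p21, was at 0.944, 1.09 and 1.13 FPKM with vehicle and 1.09, 1.18 and 1.26 FPKM with CT-179 and overlapped (log2 fold change 0.08, SE 0.06, limma adjusted p 0.4). Cdk1, Ccnb1 and Pole were named after their values had been seen.

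Within the SHH pathway, 3 of 13 genes fell and 0 rose (median -0.09), and 1 fell after the length correction (median -0.07). Over all genes 11.3% were lower, and 5.62% after the correction, so the corrected count is near that share. Gli1, the transcription factor whose own transcript reports pathway activity, was low and fell from 2.34, 2.6 and 2.4 FPKM to 1.88, 1.98 and 1.84 FPKM (log2 fold change -0.25, SE 0.05, limma adjusted p 0.017; length corrected -0.22, limma adjusted p 0.036). The call was lost when vehicle replicate 2 was left out, and likewise for replicates 1 and 3 of CT-179 (limma adjusted p 0.056, 0.067 and 0.058). Gli3, mostly a repressor, was at 10.4, 10.3 and 10.5 FPKM with vehicle and 9.14, 8.75 and 9.41 FPKM with CT-179 (log2 fold change -0.18, SE 0.04, limma adjusted p 0.015), and the co-receptor Cdon fell by 0.20, both called only before the correction. Both were lost without CT-179 replicate 2 (limma adjusted p 0.054 and 0.052), and Gli3 also without CT-179 replicate 1 (0.057) and Cdon without vehicle replicate 2 (0.053). Gli2 was at 2.7, 2.82 and 2.9 FPKM with vehicle and 2.26, 2.46 and 2.53 FPKM with CT-179 (log2 fold change -0.16, SE 0.05, limma adjusted p 0.07). Smo, the transducer of the pathway, was at 67.3, 65.3 and 66.1 FPKM with vehicle and 66.2, 67.7 and 65.8 FPKM with CT-179 (log2 fold change 0.01, SE 0.03, limma adjusted p 0.88), and its target Ccnd1 at 159, 161 and 159 FPKM with vehicle and 161, 161 and 158 FPKM with CT-179 (log2 fold change 0.0, SE 0.03, limma adjusted p 0.93), with overlapping groups in both. Equal FPKM sums called 9 of the 13 lower, and leaving out single libraries 1 (vehicle replicate 2, CT-179 replicate 1 or 2) to 5 (vehicle replicate 3). Gli2, Smo, Ccnd1 and Zic2 were named after their values had been seen. Of 7 granule lineage genes, 0 were called by limma (2 at an unadjusted p under 0.05), with Zic2 at -0.17.

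Oligodendrocyte lineage genes moved in part. Of 9 transcription factors of the lineage tested, 0 were called by limma before the length correction (1 at an unadjusted p under 0.05) and 2 were higher after it. Of 12 precursor markers, 2 rose and 3 fell, against 6.1% higher and 11.3% lower over all genes. After the length correction 0 of the 12 rose and 3 fell, against 3.72% and 5.62%. The median of the 12 was -0.06 before the correction and 0.05 after it. With equal FPKM sums 0 were higher and 5 lower, and the rises were 0 without vehicle replicate 1 or any 1 CT-179 replicate and 1 without vehicle replicate 2. The 3 falls were Cspg4, Ptprz1 and Vcan, in a list whose median exonic length is 11002 bases. Cspg4, which encodes NG2, was at 30.4, 31.9 and 29 FPKM with vehicle and 22.3, 23.9 and 20.3 FPKM with CT-179 (log2 fold change -0.44, SE 0.06, limma adjusted p 0.0034; length corrected -0.33). Ptprz1, a receptor phosphatase, was at 62.6, 66.9 and 65.6 FPKM with vehicle and 52.1, 51.6 and 49.9 FPKM with CT-179 (log2 fold change -0.34, SE 0.03, limma adjusted p 0.00099; length corrected -0.21), and Vcan, versican, at 7.93, 8.57 and 8.4 FPKM with vehicle and 6.1, 5.89 and 5.58 FPKM with CT-179 (log2 fold change -0.44, SE 0.04, limma adjusted p 0.0011; length corrected -0.31). None of the 3 had overlapping groups. Pdgfra, the receptor that drives precursor division, was at 6.7, 6.83 and 6.08 FPKM with vehicle and 6.41, 6.23 and 6.42 FPKM with CT-179 (log2 fold change -0.03, SE 0.05, limma adjusted p 0.64), and the proteoglycan gene Cspg5 at 23.7, 24.7 and 23.5 FPKM with vehicle and 24.2, 25.9 and 23.6 FPKM with CT-179 (log2 fold change 0.03, SE 0.04, limma adjusted p 0.6), both overlapping and named after their values had been seen. Nes, the neural stem cell filament nestin, fell from 165, 158 and 171 FPKM to 143, 138 and 138 FPKM (log2 fold change -0.23, SE 0.04, limma adjusted p 0.0056; length corrected -0.19, limma adjusted p 0.022), and with Ptprz1 it made up the 2 of 15 stem cell genes that fell, a share near the 11.3% over all genes. Among astrocyte genes 3 of 9 rose and 0 fell, and Apoe, a lipid carrier, was at 82, 86.5 and 82.5 FPKM with vehicle and 98.3, 99.4 and 94.8 FPKM with CT-179 (log2 fold change 0.22, SE 0.03, limma adjusted p 0.0052; length corrected 0.17). The median of the astrocyte list was 0.03, and -0.005 with equal FPKM sums, and 1 of the 9 was higher without vehicle replicate 1 or any 1 CT-179 replicate.

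Of 16 Notch pathway genes, 3 fell and 1 rose, against 11.3% lower and 6.1% higher over all genes (5.62% and 3.72% after the correction). Notch1 was at 40.0, 41 and 38.7 FPKM with vehicle and 30.2, 32.1 and 30.0 FPKM with CT-179 (log2 fold change -0.36, SE 0.04, limma adjusted p 0.00099; length corrected -0.23), and Notch2 at 14.6, 14.9 and 15.7 FPKM with vehicle and 11.4, 10.8 and 10.8 FPKM with CT-179 (log2 fold change -0.42, SE 0.04, limma adjusted p 0.00072; length corrected -0.32). With the ligand Jag1 (-0.22) they made up the falls, all 3 kept after the correction. The pathway's targets Hes1, at 26.5, 27.5 and 25.9 FPKM with vehicle and 25, 27.7 and 27 FPKM with CT-179, and Hes5, at 29.6, 28.3 and 25.6 FPKM with vehicle and 29.5, 32.6 and 28.2 FPKM with CT-179, overlapped between groups and were not called, and Nrarp rose by 0.13 but was called in only 1 of the 6 fits that left a library out. Of 13 growth factor receptor kinases, whose median exonic length is 10328 bases, 3 fell and 0 rose (length corrected 2 and 0). Egfr, the EGF receptor, was at 29.9, 30.3 and 30.4 FPKM with vehicle and 25.3, 24.4 and 24.1 FPKM with CT-179 (log2 fold change -0.28, SE 0.03, limma adjusted p 0.0012; length corrected -0.18, limma adjusted p 0.01), the insulin receptor Insr fell by 0.27 and was kept, and Igf1r fell by 0.21 and was not. Of 8 WNT genes, 4 fell and 0 rose. Lgr5, a receptor and WNT target, was at 5.09, 4.96 and 4.95 FPKM with vehicle and 4.01, 3.72 and 3.77 FPKM with CT-179 (log2 fold change -0.31, SE 0.04, limma adjusted p 0.0034; length corrected -0.22, limma adjusted p 0.017), and it was the 1 of the 4 left after the correction. Of these 8 genes, 2 were lower without vehicle replicate 1 or 2 or CT-179 replicate 2, and 1 without CT-179 replicate 1 or 3. Of the 16 Notch genes, 6 were lower without vehicle replicate 3. Hes1 and Hes5 were named after their values had been seen.

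Several pathways gave few or no calls at 24 h. The integrated stress response (17 genes), BMP signalling and ID genes (12), immediate early genes (11) and oligodendrocyte lineage factors (9) had 0 called in either direction by limma, with 0, 3, 2 and 1 at an unadjusted p under 0.05. The p53 targets had 1 of 15 lower, the unfolded protein response 1 of 19, and MAPK feedback genes 1 of 14, and 0 of each list were higher. Over all genes 6.1% were higher and 11.3% lower. Whether lists this short differ from those shares was not tested. With equal FPKM sums 3 of the 15, 4 of the 19 and 7 of the 14 were lower. Examples are Atf4, the effector of the integrated stress response, at 79.2, 74.7 and 73 FPKM with vehicle and 76.8, 79.6 and 80.4 FPKM with CT-179 (log2 fold change 0.06, SE 0.04, limma adjusted p 0.28), and Ddit3 (CHOP) at 7.01, 6.85 and 4.65 FPKM with vehicle and 5.71, 5.67 and 6.51 FPKM with CT-179 (log2 fold change -0.03, SE 0.12, limma adjusted p 0.91). Both overlapped. Myc was at 105, 98.2 and 90.1 FPKM with vehicle and 89.1, 91.8 and 93.3 FPKM with CT-179 (log2 fold change -0.09, SE 0.05, limma adjusted p 0.25). These values do not show that the genes were equal, since a difference within the spread of 3 libraries could not be detected. Atf4, Ddit3 and Myc were named after their values had been seen.

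Outside protein-coding genes, some ribosomal RNA features were higher. CT010467.1, annotated as rRNA, was at 626, 582 and 476 FPKM with vehicle and 1243, 1277 and 832 FPKM with CT-179 (log2 fold change 0.98, SE 0.16, limma adjusted p 0.0079), and of 5 rRNA genes tested 3 were higher and 1 lower (length corrected 1 and 1). CT-179 replicate 3 lay nearest to the vehicle libraries. The libraries were made with a kit for messenger RNA. This value moved with the groups, and its part in the other results was not tested. Among long noncoding RNAs, 23 of 113 lincRNA genes were lower and 2 higher, and 20 of 72 processed transcripts were lower and 2 higher. The shares over all genes were 11.3% lower and 6.1% higher. CT010467.1 was named after its values had been seen.

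The effect at 24 h was compared with that at 144 h (culture day 6) in the same cells, which has its own 3 vehicle and 3 CT-179 libraries. In the 12 libraries together, 0 genes differed in effect between the times (limma, 574 at an unadjusted p under 0.05). CT-179 144 h replicate 2 correlated at 0.9389 and 0.9398 with its group, where every other pair of 144 h libraries within a group reached 0.9972 or more. Without it, 331 of 12459 genes (2.66%) differed, 149 upward and 182 downward from 24 h to 144 h. In that fit the matrix and sterol changes were larger at 24 h: Fbn2 went from -0.62 at 24 h to -0.02 at 144 h on the log2 scale, Fn1 -0.59 and -0.13, and Msmo1 0.26 and -0.08. Over the lists, 8 of 22 matrix genes were higher and 1 lower in the difference, and 6 of 30 cholesterol genes lower and 0 higher. The splicing genes and Gli1 went the other way. Clk1 had -0.51 at 24 h and -0.89 at 144 h, Pnisr -0.51 and -0.91, and Gli1 -0.25 and -0.73. The list of CLK kinases and cyclin L had 5 of 14 genes lower in the difference. The SHH list had 3 of 13 higher and 2 lower, with Gli3 at -0.18 and 0.08. For ribosomal proteins, the respiratory chain and the proteasome 1, 0 and 0 genes differed between the times. All of these differences rest on leaving out that 1 library. Fbn2, Fn1 and Msmo1 were named by their 24 h values, which also enter the difference, so a smaller effect at 144 h was favoured.

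**Figure D4:**
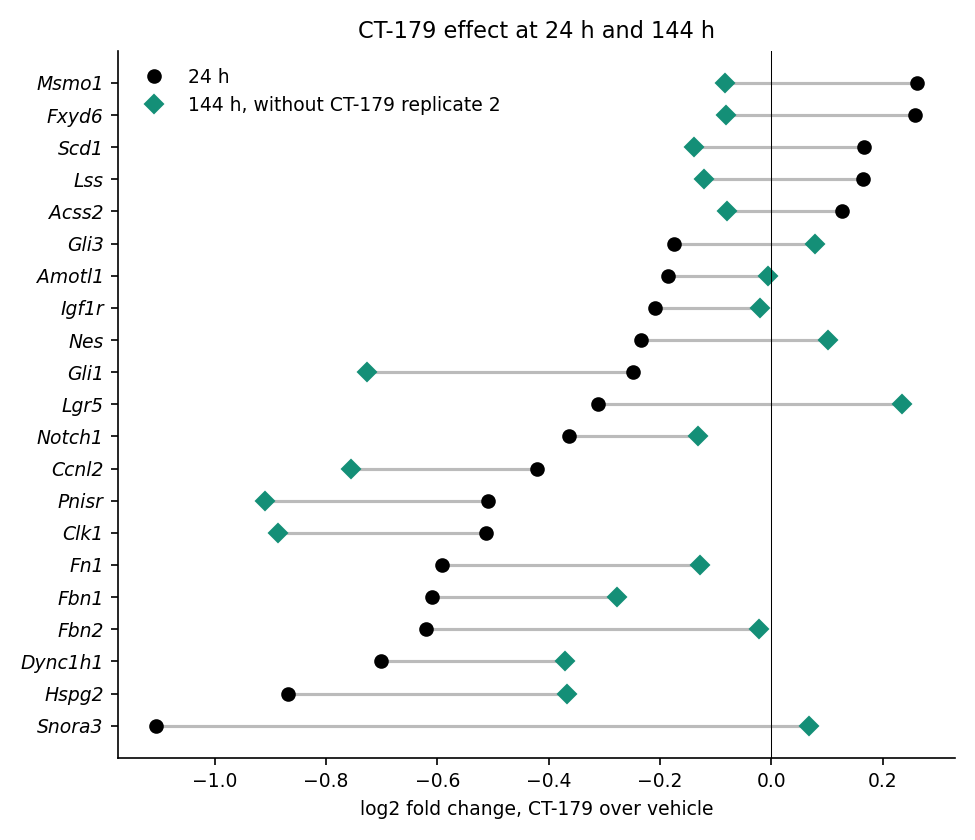
Log2 fold change of CT-179 over vehicle at 24 h (black circles) and at 144 h without CT-179 replicate 2 (green diamonds) for the 21 named genes whose difference between the times passed the test in those 11 libraries. Fbn2 and Fn1 lie far below 0 at 24 h and near 0 at 144 h, while Gli1, Clk1 and Pnisr lie further below 0 at 144 h.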

How the data were processed

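RNA was read from 3 vehicle and 3 CT-179 cell libraries of 24 h. The tools were HTSeq 0.6.1p2, STAR 2.6.0c, edgeR 3.28.1, Trim Galore 0.5.0 and R 3.6, and the build mm10, per the submitters' processing notes. The authors deposited FPKM per gene and library. Settings, annotation and strand of counting are not given in the sources used here, so overlapping and antisense genes may share reads. Between 89.3% and 91.2% of low values were whole reads (tolerance 0.1, up to 20 reads), at 1.331 to 1.335 times the FPKM scale for a reason not known, so no count test was run. Replicate pairs differed by 1.7 to 2.66 times the Poisson value.

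Genes with FPKM of 1 or more in 3 of 6 libraries were tested on log2(FPKM + 1), which understates changes of low genes, with limma 3.58.1 in R 4.3.3 (mean trend, two-sided), with Benjamini-Hochberg adjustment over all genes tested and a threshold of 0.05. Exonic length came from GENCODE M21, which held 99.5% of identifiers. The length correction subtracted a loess (span 0.3) fitted over protein-coding genes. The code was tested on simulated data. Named genes were Olig2, Olig1, Sox10, Trp53, Ptch1, Gli1, Mycn, Mki67 and Cdkn1a, the 10 largest called rises and falls without overlap and with a mean of 5 FPKM in a group, before and after the correction, the up to 4 members of smallest p of each list with 2 or more calls, and the 4 largest small RNA rises and falls. Others are marked. Members and lists were chosen with earlier results of these data known. A planned promoter search for the core of a sterol regulatory element covered 21 of 30 cholesterol genes, the others having no promoter sequence. It found the motif in 1 of the 21 (4.76%), against 119 of 8559 tested protein-coding genes (1.39%). No test was run, and nothing is concluded from 1 gene. The brain samples were not analysed here.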

Additional observations from a re-analysis of the deposited data

Results flagged for a closer look

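For 21 named genes the effect of CT-179 differed between 144 h and 24 h by an interaction test, once CT-179 144 h replicate 2 was left out (limma, adjusted over 12459 genes). With all 12 libraries 0 of them differed. The values are the log2 effect at 144 h minus that at 24 h. Most of the 21 genes were named by their 24 h values, which also enter this difference. Effects nearer to 0 at 144 h were therefore favoured. Matrix and other long genes that fell at 24 h had positive differences: Hspg2 (0.50), Fbn2 (0.60), Fn1 (0.46), Fbn1 (0.33) and Dync1h1 (0.33). The same held for the progenitor, receptor and junction genes Lgr5 (0.55), Nes (0.34), Gli3 (0.25), Notch1 (0.23), Igf1r (0.19) and Amotl1 (0.18). Lipid synthesis genes and an ion transport regulator that rose at 24 h had negative differences: Msmo1 (-0.34), Lss (-0.29), Scd1 (-0.31), Acss2 (-0.21) and Fxyd6 (-0.34). Genes that fell further by 144 h were Gli1 (-0.48), Clk1 (-0.37), Ccnl2 (-0.33) and Pnisr (-0.40). The snoRNA gene Snora3 fell at 24 h and was near 0 at 144 h, a difference of 1.17.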

How the results depend on the processing

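The comparison has 3 libraries per group of 1 line, and the deposited values do not state the depth. Olig2 stayed uncalled and positive under every alternative run. Counts of higher and lower genes were 701 and 1295. They were 213 and 730 with no filter on low values, 266 and 2676 with equal FPKM sums, 427 and 645 with the length correction, 142 and 403 with the replicate block and the length correction together, 0 and 57 with a fold minimum of 1.2, and 0 and 33 in a fit of all 12 cell libraries. With single libraries left out they ran from 175 to 960 and from 628 to 1464. Replicate numbers did not pair the libraries (correlations of same-numbered deviations -0.033, 0.048 and 0.058), and the replicate block alone gave 525 and 962. After the length correction, with 427 and 645 as the start, the longest transcript as length gave 269 higher, the replicate block 142 and 403, and leaving out single libraries 42 to 848 and 247 to 789. The difference between the times had 0 genes in each direction. It had 3 and 5 with the length correction, 1 and 2 without CT-179 144 h replicate 1, 149 and 182 without CT-179 144 h replicate 2, and 169 and 216 in those 11 libraries with the length correction (added after the data were seen). The length relation went from -0.539 to 0.007 with the length correction, alone or with the block, by construction. Apc and Acaca turned sign with it, from -0.14 to 0.006 and from -0.14 to 0.018, in both of these fits. Of 133 called named genes tested in all 6 fits that left a library out, 79 were called in each. The cause of these shifts was not tested.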
